A study of Mus musculus with 6 samples.

Results

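The inflammatory chemokines described here are 10 mouse genes taken from a list of gene names: Cxcl1, Cxcl2, Cxcl3, Cxcl5, Cxcl16, Ccl2, Ccl7, Ccl8, Ccl20 and Cx3cl1. They were followed among 23044 genes measured on both array designs of a study of dermal and wound stromal cells. Cells were sorted from transgenic mice in which GFP is driven by the smooth muscle actin (SMA) promoter, and the sort excluded CD45+ white blood cells and CD31+ endothelial cells. The skin group is the population with low reporter signal (SMA+) from dermis, labelled fibroblast-like. The wound group is the population with high reporter signal (SMA+++) from wounds 7 days after injury, labelled myofibroblast. All cells of both groups carry the reporter, so no group without the transgene enters the comparison. Reporter level and injury differ between the groups together, and their parts cannot be told apart. The reporter promoter is also active in the smooth muscle cells and pericytes around vessels, and the strain, age and number of mice are not given in the sources used here. Each group has 3 Agilent 1-colour arrays, replicates 1 and 2 on array design 026655 and an unnumbered array, called replicate 3 here only as a name, on design 028005. The labels do not state whether replicates are different animals, so each p-value is measured against the spread of these arrays, which may be technical in part or in whole.

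Chemokines are small secreted proteins that attract white blood cells along a concentration gradient, and they act through G protein-coupled receptors on the arriving cells. The CXC chemokines with a glutamate-leucine-arginine motif before the first cysteines (Cxcl1, Cxcl2, Cxcl3 and Cxcl5 here) act mainly through Cxcr2 on neutrophils. Ccl2 and Ccl7 recruit monocytes through Ccr2. In stromal cells many of these genes are transcribed through NF-kB after interleukin-1 or tumour necrosis factor, and their mRNAs are short-lived because AU-rich elements direct their decay. Wound fibroblasts are known as a source of several of them.

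On the arrays, 65.2% to 72.6% of spots in the skin group and 64.4% to 71.1% in the wound group were well above background, and no spot was saturated. Of 16660 genes tested, 34.1% passed the threshold of an adjusted p under 0.05, 18.5% higher and 15.5% lower in wound cells, and the median log2 difference of all of them was 0.05. Acta2, which encodes smooth muscle actin and checks the labels, was higher in wound cells (log2 difference 4.71, SE 0.16, adjusted p = 5.12e-05, limma). All 10 fibroblast markers were well above background on all 6 arrays, among them Col1a1 and Dcn. Levels below are log2 of the processed signal over the 75th percentile of the array, so 0 is the signal of a probe at that percentile. Levels of these genes on design 028005 were usually higher than on design 026655, so skin and wound arrays were compared within each design, as the mean of 2 and 2 arrays on design 026655 and 1 and 1 on design 028005. Unless named as a permutation p, each p-value is from limma with the array design as a term. The limma p-values were adjusted over all genes tested by the Benjamini-Hochberg method. Each SE is that of the log2 difference between 3 and 3 arrays.

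Of the 10 chemokines, 9 were tested, and 6 of these were higher in wound cells: the neutrophil attractants Cxcl1, Cxcl2, Cxcl3 and Cxcl5, the membrane-bound Cxcl16 and the monocyte attractant Ccl2. None of the 9 was lower, and Ccl7, Ccl8 and Cx3cl1 did not pass the threshold. Ccl20 was not well above background on any array. Of the 9, 8 were well above background on all 6 arrays, and Cxcl3 was tested only through the wound group, where it is high. The median log2 difference of the 9 tested was 2.87, beside 0.05 for all genes tested. The skin and wound arrays did not overlap in level for 6 of the 9, the same 6 genes, while 17.0% of all genes tested had groups that did not overlap. More cells that make a chemokine and more of its RNA per cell cannot be told apart in these bulk samples.

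**Figure D1:**
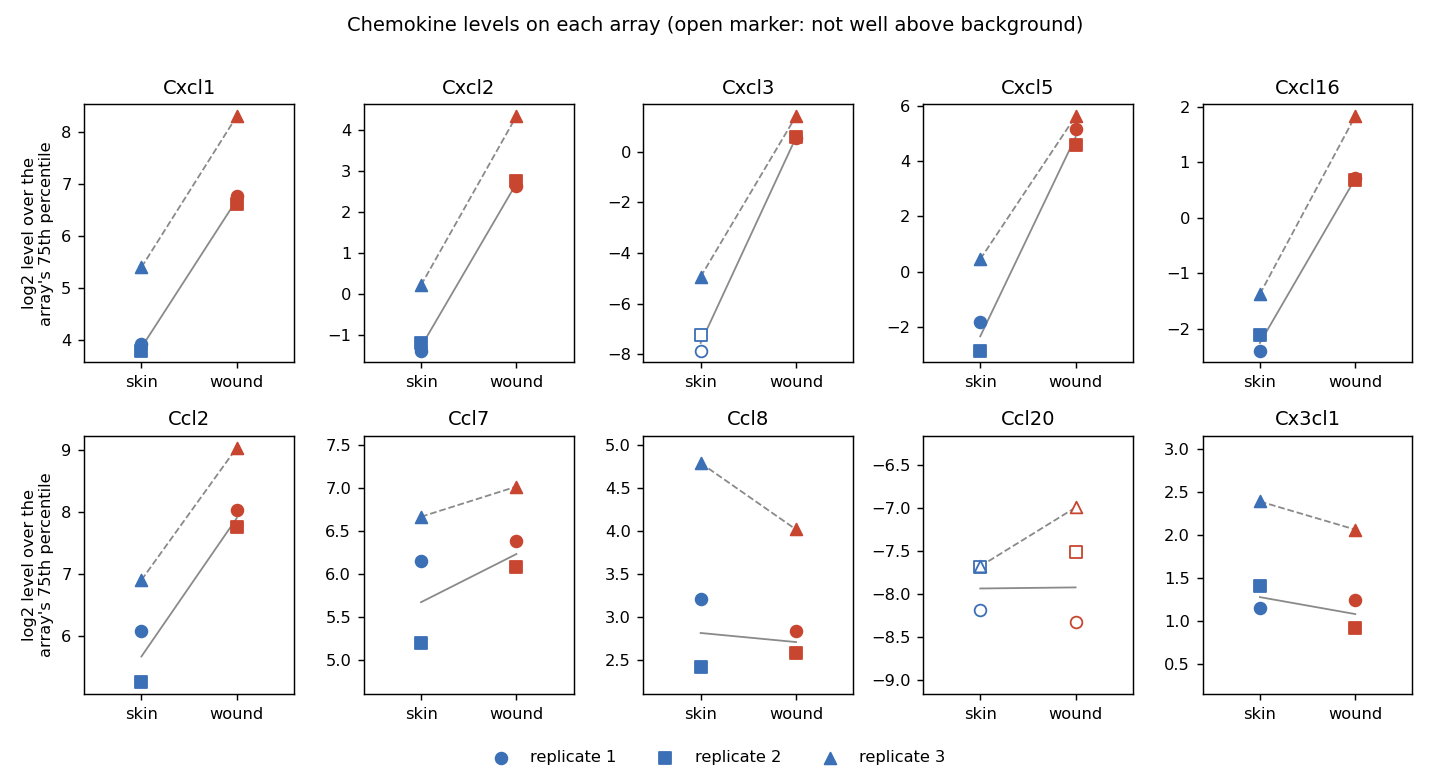
Log2 level over the array's 75th percentile (vertical axis, scaled for each gene) of the 10 chemokines in skin and wound cells, with a solid line joining the group means on design 026655 and a dashed line joining the arrays of design 028005. Open markers are arrays where the probe was not well above background; the lines of Cxcl1, Cxcl2, Cxcl3, Cxcl5, Cxcl16 and Ccl2 all rise and their groups do not overlap.

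Cxcl1, Cxcl2 and Cxcl3 are closely related genes of the same cluster on mouse chromosome 5, with Cxcl15 between Cxcl3 and Cxcl1. Their proximal promoters are shown because these genes were higher in wound cells, so the choice followed the values. The promoter of Ccl8, a chemokine that did not pass the threshold, stands beside them. Each run is the 120 bases before the annotated start on the plus strand, 5′ to 3′, from RefSeq on GRCm38.p6. The capitals mark matches, on either strand, to a kappa B-like motif (GGNNTTTCC) or a TATA box (TATAAA).
Cxcl1 (chr5:90891125-90891244): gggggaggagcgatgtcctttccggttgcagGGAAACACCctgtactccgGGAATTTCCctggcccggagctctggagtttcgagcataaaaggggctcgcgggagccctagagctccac
Cxcl2 (chr5:90903779-90903898): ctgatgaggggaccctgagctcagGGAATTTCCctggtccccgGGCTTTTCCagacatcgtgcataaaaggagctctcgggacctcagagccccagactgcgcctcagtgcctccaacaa
Cxcl3 (chr5:90785981-90786100): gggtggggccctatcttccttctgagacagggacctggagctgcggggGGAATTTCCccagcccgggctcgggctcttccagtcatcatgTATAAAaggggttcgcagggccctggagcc
Ccl8 (chr11:82115065-82115184): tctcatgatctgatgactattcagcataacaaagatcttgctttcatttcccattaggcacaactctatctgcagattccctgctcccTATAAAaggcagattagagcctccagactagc
Promoters of 6 of the 10 chemokines matched by symbol, those of Ccl20 and Cx3cl1 beside these 4. Those of Ccl7 and of Cxcl5, Cxcl16 and Ccl2, which were higher in wound cells, were not available. The search covered 250 bases before the start, on both strands. Cxcl1 and Cxcl2 held 2 kappa B-like matches each, Cxcl3 and Ccl20 held 1 each, and Ccl8 and Cx3cl1 held 0. Of 32851 promoters, 4.93% held at least 1 such match. The TATAAA letters stood 30 to 25 bases before the start in Cxcl3 and 32 to 27 bases before it in Ccl8, also 6 to 1 bases before the start of Cx3cl1, and 12.4% of all promoters held them. An AP-1-like motif (TGANTCA), present in 6.75% of promoters, matched in none of the 6. Cxcl1, Cxcl2 and Cxcl3 carried the same 9 letters, GGAATTTCC, at 70 to 62, 96 to 88 and 72 to 64 bases before the start. These letters were looked up after the sequences had been read, and 94 of 32851 promoters (0.286%) held them. The TATAAA and kappa B-like motifs do not overlap each other in these windows. A match describes letters and was not tested as a binding site, and matches were not tested against the differences in level.

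Cxcl1, a neutrophil attractant made by activated fibroblasts and epithelium, had log2 levels of 3.91, 3.79 and 5.39 on skin replicates 1, 2 and 3 and of 6.77, 6.62 and 8.30 on wound replicates 1, 2 and 3. All 3 wound arrays stood above all 3 skin arrays. The difference was 2.85 on design 026655 and 2.91 on design 028005, and the fitted difference was 2.87 (SE 0.14, 7.29-fold, adjusted p = 8.9e-05). Cxcl1 was thus already well above the 75th percentile of its arrays in skin cells.

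Cxcl2, a close relative that acts on the same receptor, stood at -1.39, -1.19 and 0.21 in skin cells and at 2.65, 2.76 and 4.35 in wound cells. Its lowest wound array lay above its highest skin array, and the fitted difference was 4.04 (SE 0.15, 16.5-fold, adjusted p = 5.51e-05). The change of Cxcl2 exceeded that of Cxcl1 by 1.18 on the log2 scale. An exact two-sided permutation test of this difference of changes, which exchanged arrays across both designs, gave p = 0.1. That is the smallest p that 3 against 3 arrays allow, so this test could not pass a threshold of 0.05.

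Cxcl3, the third of these relatives, stood at -7.85, -7.24 and -4.94 in skin cells, where its probe was well above background on replicate 3 only. In wound cells it stood at 0.54, 0.58 and 1.40. As read, the log2 difference was 7.51 (SE 0.39, adjusted p = 9.76e-05), with no overlap of the groups. Its size rests on dim skin signals and gives no exact fold. Under normexp background correction with an offset of 50, then quantile normalisation within each design (normexp below), it was 3.86. With dim signals raised to the lowest signal well above background it was 6.30, and the call held in both. Cxcl5, described next, stood at 6.06 and 6.52 under these settings, so the order of Cxcl3 and Cxcl5 by size turns with the setting.

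Cxcl5, which is also an attractant of neutrophils, stood at -1.81, -2.85 and 0.46 in skin cells and at 5.16, 4.58 and 5.62 in wound cells. The groups did not overlap, although the skin arrays spread more widely than the wound arrays. The fitted difference was 6.52 (SE 0.49, 92.0-fold, adjusted p = 0.000273). It was 7.20 on design 026655 and 5.17 on design 028005, beside 8.10 and 6.33 for Cxcl3.

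Cxcl16 and Cx3cl1 are made as membrane-anchored chemokines that proteases release, and they bind Cxcr6 and Cx3cr1. Cxcl16 stood at -2.39, -2.11 and -1.37 in skin cells and at 0.72, 0.69 and 1.83 in wound cells. All wound arrays were above all skin arrays, with a fitted difference of 3.04 (SE 0.16, 8.23-fold, adjusted p = 9.76e-05). Cx3cl1 stood at 1.14, 1.40 and 2.39 in skin cells and at 1.24, 0.91 and 2.06 in wound cells. The groups overlapped, and the difference was -0.24 (SE 0.17, adjusted p = 0.32) with a 95% interval of -0.65 to 0.17.

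Ccl2, the main attractant of inflammatory monocytes, stood at 6.09, 5.26 and 6.91 in skin cells and at 8.04, 7.77 and 9.04 in wound cells. The wound arrays were the 3 highest, and the fitted difference was 2.19 (SE 0.24, 4.58-fold, adjusted p = 0.00104). Its probe, printed as 10 spots an array, was thus far above the 75th percentile in both groups. Ccl7, a related ligand of Ccr2 encoded next to Ccl2, stood at 6.15, 5.20 and 6.67 in skin cells and at 6.38, 6.09 and 7.02 in wound cells. The groups overlapped, and the log2 difference of 0.49 (SE 0.27, adjusted p = 0.214) had a 95% interval of -0.17 to 1.15. The change of Ccl2 exceeded that of Ccl7 by 1.70 on the log2 scale. The exact two-sided permutation test, again exchanging arrays across designs, gave p = 0.1, the smallest possible, and could not pass 0.05.

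Ccl8, which acts through Ccr8 in mice, stood at 3.21, 2.42 and 4.79 in skin cells and at 2.84, 2.58 and 4.02 in wound cells. Its difference was -0.11 on design 026655 and -0.77 on design 028005, and the fitted value was -0.33 (SE 0.27, adjusted p = 0.383, 95% interval -0.97 to 0.32). Ccl20, the ligand of Ccr6, stood between -8.19 and -7.68 in skin cells and at -8.33, -7.52 and -6.997 in wound cells. Since its probe was not well above background on any of the 6 arrays, it has no fold change here.

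Skin replicates 1 and 2, on the same array design, differed for some of these genes more than for others. Replicate 1 was higher by 1.04 for Cxcl5, 0.96 for Ccl7, 0.83 for Ccl2 and 0.79 for Ccl8, distances that 3.43%, 4.17%, 5.77% and 6.5% of all genes tested reached or passed. Wound replicates 1 and 2 differed by 0.58, 0.30, 0.28 and 0.25 for the same genes. For Cxcl1 the gap was 0.12 in skin cells and 0.15 in wound cells. Without skin replicate 1 the difference of Ccl2 was 2.42 and that of Ccl7 0.74, and without skin replicate 2 they were 1.95 and 0.20.

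**Figure D2:**
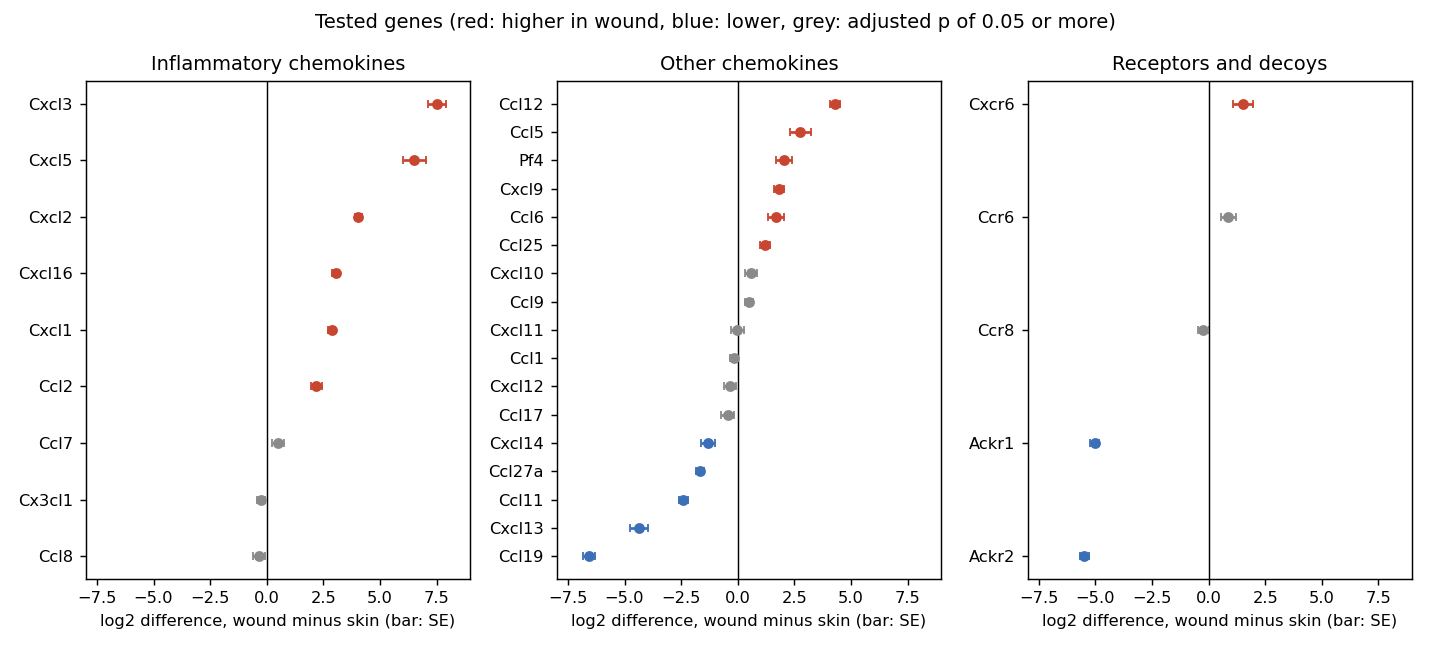
Log2 difference, wound minus skin (horizontal axis, bars of 1 SE from the fit to 3 and 3 arrays), for the tested genes among the inflammatory chemokines, all other chemokines and the receptors. Red genes were higher, blue genes lower and grey genes did not pass an adjusted p of 0.05; Cxcl3, dim on 2 of 3 skin arrays, and Ccl12 and Cxcl13, dim in a whole group, are drawn at their values as read, and Cxcl5 lies furthest to the right among the other inflammatory chemokines.

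The other chemokine ligands moved in both directions. Of 28 listed, 17 were tested, 6 were higher, 5 were lower and 6 did not pass, with a median log2 difference of -0.03. Of the 17, 12 were well above background on all 6 arrays, 3 of them higher and 4 lower. The other 5 were tested only through the skin or the wound group. Counts of this and each later list stand beside 34.1% of all genes tested that passed, 18.5% higher and 15.5% lower. Ccl12, a monocyte attractant close to Ccl2, exceeded its skin level at least 6.96-fold (adjusted p = 0.0001), its probe being not well above background on any skin array. Such a bound divides the mean of the bright group by a floor for the dim group: on each dim array, the weakest signal that counted as well above background, or the signal of the probe itself where that was higher. It holds only for the main processing. Under normexp, which adds an offset and quantile normalisation, every difference given with a bound was smaller than that bound. Ccl5, which recruits T cells and monocytes, rose by a log2 of 2.77 (SE 0.46, adjusted p = 0.00542), with 1.27 on design 028005. Ccl19, a ligand of Ccr7 in lymphoid tissue, fell by 6.56 (SE 0.27, adjusted p = 6.58e-05). Cxcl13, a B cell attractant, was at least 6.55-fold lower (adjusted p = 0.00052). Under normexp the differences of Ccl12 and Cxcl13 were 1.16 and -1.33. Cxcl12, a stromal chemokine that acts on Cxcr4, had a difference of -0.34 (SE 0.25, adjusted p = 0.341), and the mean of all its probes gave 0.38.

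Gene order gives another view of the same values. On chromosome 5 the order was Cxcl5, Ppbp, Pf4, Cxcl3, Cxcl15, Cxcl1 and Cxcl2. Cxcl5, Cxcl1 and Cxcl2, well above background on all 6 arrays, were higher in wound cells. Cxcl3 and Pf4, a platelet chemokine that 2 of 3 skin arrays measured, were also higher but were tested only through the wound group (Pf4 log2 difference 2.03, SE 0.35, adjusted p = 0.00616, or 1.00 under normexp). Ppbp and Cxcl15 were too dim to be tested, with differences of 1.81 and -0.22 as read. On chromosome 11 the order was Ccl2, Ccl7, Ccl11, Ccl12, Ccl8 and Ccl1, and the genes did not share a direction. Ccl2 and Ccl12 were higher, Ccl11, an eosinophil attractant, fell by 2.40 (SE 0.18, adjusted p = 0.000289), and Ccl7, Ccl8 and Ccl1 did not pass. Ccl11 had log2 levels of 3.37, 3.02 and 4.30 in skin cells and of 0.91, 0.54 and 2.05 in wound cells, with no overlap. Pf4, Ppbp, Cxcl15, Ccl11 and Ccl1 were named as neighbours after their values had been seen.

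**Figure D3:**
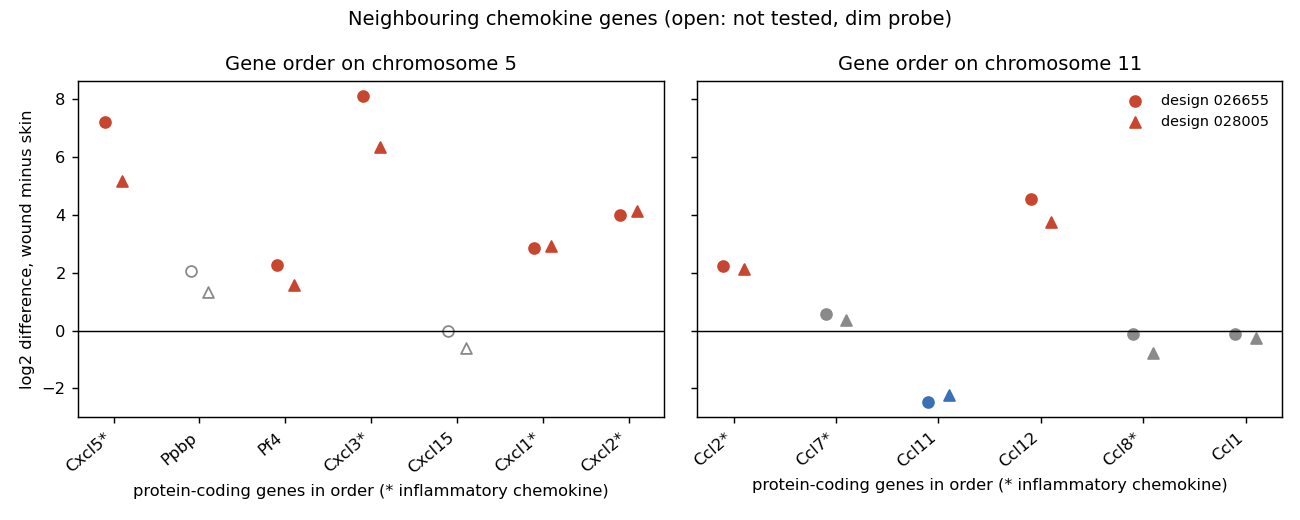
Log2 difference, wound minus skin (vertical axis), on each array design for neighbouring chemokine genes in their order on chromosomes 5 and 11 (asterisks mark the inflammatory chemokines). Red genes were higher, blue lower, grey not past the threshold and open symbols not tested; Cxcl5, Cxcl1 and Cxcl2 lie above 0 on both designs, chromosome 11 genes lie on both sides of 0, and Cxcl3, Pf4 and Ccl12 are drawn as read although dim on some or all skin arrays.

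Receptors for these chemokines are made mainly by white blood cells, and most of their probes were dim. Of the 12 listed, 5 were tested. Probes of Cxcr1 and Ccr1 were not well above background on any array. Those of Cxcr2 and Ccr2, the main receptors of the neutrophil and monocyte attractants, reached that level on 3 and 2 of the 6 arrays, and those of Ccr3 and Cx3cr1 on 1 each. The atypical receptors moved most. Ackr1, which binds CXC and CC chemokines without signalling, stood at 2.88, 2.37 and 3.32 in skin cells and at -2.50, -2.62 and -1.44 in wound cells. It fell by 5.04 (SE 0.20, 33.0-fold lower, adjusted p = 6.4e-05), with no overlap of the groups. Ackr2, a scavenger that takes up and degrades CC chemokines, stood at 1.57, 1.04 and 3.02 in skin cells and at -4.30, -4.28 and -2.25 in wound cells. It fell by 5.49 (SE 0.19, 44.9-fold lower, adjusted p = 5.12e-05).

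Cxcr6, the receptor of Cxcl16, was higher by 1.50 (SE 0.44, adjusted p = 0.0429), with 2.17 on design 026655 and 0.15 on design 028005. Under normexp the difference was 0.60. The call was lost without skin replicate 1 or 2 or wound replicate 1 or 2, where the adjusted p lay between 0.0988 and 0.131. Ccr6, the receptor of Ccl20, had a difference of 0.87 (SE 0.34, adjusted p = 0.097), which passed without wound replicate 1 (adjusted p = 0.0236). Ccr8 had a difference of -0.24 (SE 0.24, adjusted p = 0.474).

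A list of inducers of these chemokines, their receptors and related cytokines such as Csf2 and Csf3 was split in direction. Of 23 listed, 18 were tested, 6 were higher and 6 lower, with a median of 0.04, while 34.1% of all genes tested passed. Of the 18, 14 were well above background on all 6 arrays, 3 of them higher and 5 lower. The other 4, among them Csf2 and Csf3, were tested only through the skin or the wound group. Csf2, which encodes GM-CSF and is itself an NF-kB target in fibroblasts, stood at -4.69, -6.08 and -3.23 in skin cells, where 2 of 3 arrays measured it. In wound cells it stood at 1.56, 1.90 and 2.83, and the difference was 6.77 (SE 0.41, adjusted p = 0.000133), or 4.77 under normexp. Csf3, which encodes G-CSF, the growth factor of neutrophils, rose by 2.65 (SE 0.52, adjusted p = 0.0103), or by 1.42 under normexp, and 2 of 3 skin arrays measured it. The alarmin Il33 rose by 2.71 (SE 0.30, adjusted p = 0.00101), with 1.78 on design 028005. Il1r1, the signalling receptor of interleukin-1, was higher by 0.76 (SE 0.14, adjusted p = 0.00877), while Il1rap, its coreceptor, fell by 1.99 (SE 0.19, adjusted p = 0.000586), or by 1.06 under normexp. Tnfrsf1a differed by 0.18 (adjusted p = 0.423). Tnf, which 2 of 3 skin arrays measured, was higher by 1.21 (SE 0.17, adjusted p = 0.00279), tested only through the wound group. Il1a and Il1b were too dim to be tested. Tlr2 fell by 1.97 (adjusted p = 0.000324) and Il17ra by 1.56 (adjusted p = 0.00186). Il6, another cytokine with an NF-kB-driven gene, had log2 levels of 5.42, 4.89 and 7.01 in skin cells and of 4.95, 5.10 and 6.47 in wound cells. Its groups overlapped (difference -0.27, SE 0.20, adjusted p = 0.35).

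All 19 NF-kB subunits, regulators, feedback genes and targets were tested, and 13 did not pass the threshold, with 3 higher, 3 lower and a median of -0.04. The share that passed was near the 34.1% of all genes tested. Nfkbia, which encodes the inhibitor IkB alpha and is induced by NF-kB, differed by -0.25 (SE 0.15, adjusted p = 0.248). Tnfaip3, which encodes the feedback inhibitor A20, differed by -0.14 (SE 0.20, adjusted p = 0.64). Of the subunit genes only Relb passed, higher by 0.73 (SE 0.18, adjusted p = 0.0251). Tnip1 was higher by 0.53 (SE 0.15, adjusted p = 0.0364). The adhesion molecule Icam1 fell by 2.26 (SE 0.26, adjusted p = 0.00124), Birc3, an inhibitor of apoptosis, by 1.36 and the kinase gene Map3k8 by 1.18, with -1.48 for Icam1 and -0.61 for Map3k8 on design 028005. Vcam1, another adhesion molecule, was higher by 1.07 (adjusted p = 0.0165), a call lost without skin replicate 2 or 3 or wound replicate 2 or 3, where the adjusted p lay between 0.051 and 0.0703.

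Of the 11 genes that bind AU-rich mRNA or regulate its decay, 4 were lower, 1 was higher and 6 did not pass, while 34.1% of all genes tested passed. The list mixes genes that act on this decay in different senses, so its counts give no direction of decay. Zfp36, which encodes tristetraprolin, a protein that binds AU-rich elements and speeds the decay of chemokine mRNA, stood at 1.41, 1.72 and 3.23 in skin cells and at -0.37, -0.26 and 2.27 in wound cells. The groups overlapped across designs, and within each design the wound arrays were lower (difference -1.57, SE 0.23, adjusted p = 0.00337, with -0.96 on design 028005). Its relative Zfp36l2 fell by 0.90 (SE 0.14, adjusted p = 0.0043). Dusp1, a phosphatase that switches off p38 MAP kinase, fell by 1.65 (SE 0.14, adjusted p = 0.000378), and Mapkapk2, a kinase downstream of p38, rose by 0.83 (SE 0.15, adjusted p = 0.00752).

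Proteases that release or trim chemokines were all 9 tested, with 5 higher, 2 lower and a median of 0.57, while 34.1% of all genes tested passed. The 7 that were well above background on all 6 arrays held 3 higher and 2 lower. Mmp9 and Mmp12 were tested only through the wound group. Mmp9, which can trim neutrophil attractants, was at least 55.8-fold higher (adjusted p = 5.12e-05), and Mmp12, an elastase known from macrophages, at least 5.55-fold higher (adjusted p = 0.00145). Their log2 differences under normexp were 3.50 and 0.85, smaller than these bounds. Mmp13, a collagenase, rose from log2 levels of -3.99, -4.11 and -3.17 to levels of 1.93, 2.33 and 2.51, with no overlap. Its difference was 6.01 (SE 0.19, adjusted p = 5.12e-05). Mme, which encodes neprilysin, fell by 2.60 (SE 0.23, adjusted p = 0.000453). Adam10 and Adam17 encode the sheddases of Cxcl16 and Cx3cl1. Adam10 was higher by 0.57 (SE 0.16, adjusted p = 0.0347), a call lost without any of the 6 arrays (adjusted p between 0.0588 and 0.146). Adam17 differed by 0.01 (SE 0.14, adjusted p = 0.952).

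**Figure D4:**
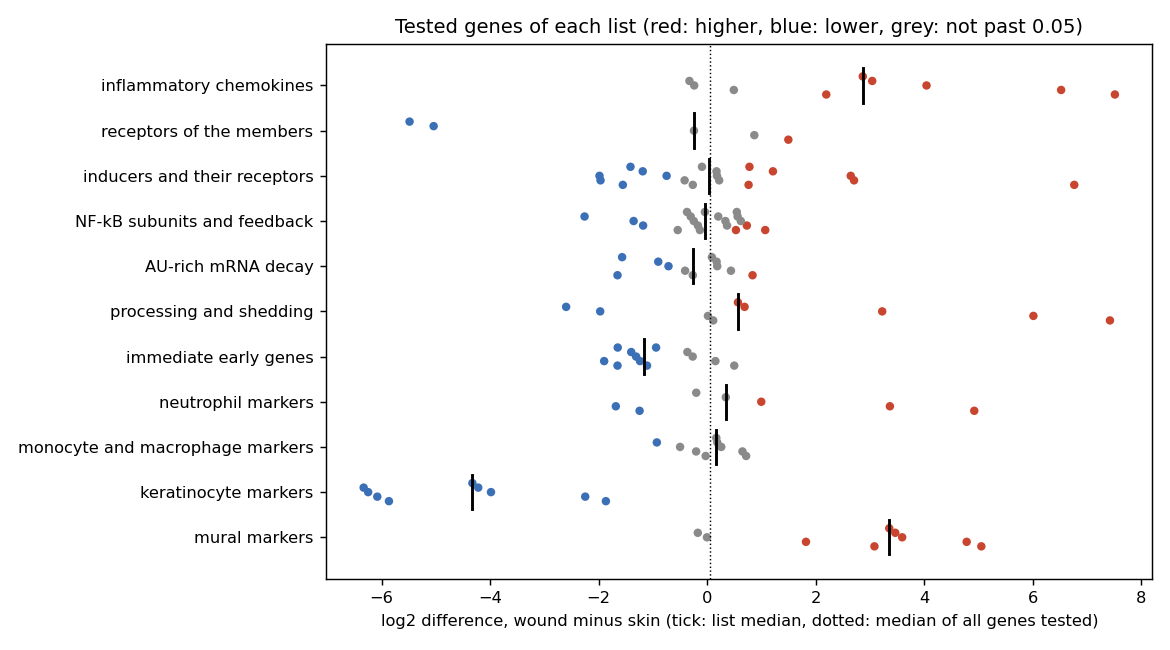
Log2 difference, wound minus skin (horizontal axis), of each tested gene in 11 lists; a tick marks the median of a list and the dotted line that of all 16660 genes tested, 0.05. The inflammatory chemokines lie mostly to the right with a median of 2.87, as do the mural markers with a median of 3.36, while the keratinocyte markers lie to the left with a median of -4.33, 6 of them tested only through the skin group.

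Markers of other cell types were read beside these results, since white blood cells, keratinocytes and mural cells can make chemokines too. Their part in the differences of the chemokines was not tested. The summed level of each list is given in multiples of the 75th percentile of an array. Of 10 neutrophil markers 7 were tested, 3 higher and 2 lower, and their sum ranged from 77.1 to 180.0 in skin cells and from 63.7 to 118.0 in wound cells. Most of that sum came from Csf3r, which differed by -0.20 (adjusted p = 0.614), and without it the sum ranged from 1.88 to 12.4 and from 1.97 to 20.5. Mpo was at least 17.4-fold higher (adjusted p = 6.29e-05) and S100a9 was higher by 3.37 (adjusted p = 0.00913), while S100a8 fell by 1.69 (adjusted p = 0.021) and Ly6g by 1.25 (adjusted p = 0.0395). Mpo and S100a9 were tested only through the wound group, and S100a8 only through the skin group. The 4 markers well above background on all 6 arrays held 1 higher, Elane (0.996, adjusted p = 0.0196), and 1 lower, Ly6g. S100a9 was well above background on 1 skin array, and the normexp differences were 2.11 for Mpo, 0.99 for S100a9 and -0.76 for S100a8. The call of S100a8 was lost without skin replicate 2 or wound replicate 1, and that of Ly6g without skin replicate 1 or 3 or wound replicate 2 or 3. Of the neutrophil markers, Ltf was not well above background on any array.

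Of 15 monocyte and macrophage markers 9 were tested and 1 passed, Csf1r, which fell by 0.93 (adjusted p = 0.0183) and lost the call without skin replicate 1 or 3 or wound replicate 2 or 3. The sum of that list ranged from 22.9 to 116.0 in skin cells and from 22.7 to 102.0 in wound cells, and Mrc1 was dim on all arrays. Most of it came from Itgam, which differed by 0.18 (adjusted p = 0.545), and without it the sum ranged from 4.76 to 16.8 and from 3.46 to 10.5. The median of the 9 tested was 0.17. Adgre1 differed by 0.72 (adjusted p = 0.08), with no overlap of the groups, and Cd68 by -0.50 (adjusted p = 0.0604). Too dim to be tested, Lyz2, Mrc1, C1qa and C1qc differed by 1.75, 1.03, 1.01 and 1.01 as read, and Fcgr1 by -0.18. Ptprc, which encodes the sort marker CD45, was well above background on 3 skin arrays and 1 wound array, with a difference of -0.20 (adjusted p = 0.366). Of 7 lymphocyte markers 3 were tested and 0 passed, their sum lay between 1.73 and 5.17 in skin cells and between 2.28 and 4.32 in wound cells, and Cd3d was dim on all arrays.

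Of 8 endothelial markers 7 were tested and 3 were higher: Esam by 3.67, Emcn, which 1 of 3 skin arrays measured, by 2.58 (0.69 under normexp), and Tek by 1.08 (0.57). Their sum ranged from 3.84 to 16.0 in skin cells and from 7.33 to 18.9 in wound cells. Pecam1, which encodes the sort marker CD31, was well above background on all 6 arrays and differed by 0.37 (adjusted p = 0.152).

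Of 11 keratinocyte markers 9 were tested, and these 9 were lower, but 6 of them were dim on some or all wound arrays and were tested only through the skin group. The other 3 were well above background on all 6 arrays, among them Krt5, which fell by 4.33 (adjusted p = 0.000133), and Krt14, which fell by 2.25 (adjusted p = 0.00465). The sum of the list was 14.7 to 35.0 in skin cells and 0.602 to 2.7 in wound cells, and Dsg3 was dim on all arrays. Krt1 was at least 22.8-fold lower (adjusted p = 0.00276), and Dsp, Krt17 and Krt15, measured on 1, 1 and 2 of 3 wound arrays, were lower by a size that dim signals set. Under normexp these 4 differences were -2.73, -3.50, -3.69 and -3.42. Mural markers rose for 7 of 9 tested, from a sum of 22.1 to 39.5 to a sum of 76.9 to 202.0, led by Higd1b at 5.05, Rgs5 at 4.78, Myh11 at 3.59 and Notch3 at 3.47. Myofibroblast markers rose for 7 of 7, from 55.2 to 166.0 to a sum of 361.0 to 1060.0, led by Acta2, Cnn1 (4.64), Actg2 (4.08) and Tagln (3.21). Of 10 fibroblast markers 2 were lower, Pdgfra by 1.30 and Fbln1 by 1.20, and the sum ranged from 1210.0 to 4170.0 in skin cells and from 1050.0 to 3420.0 in wound cells.

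Immediate early genes, which respond to tissue dissociation and handling, were lower for 8 of 12 tested and higher for 0, with a median of -1.17. Fos fell by 1.90 (adjusted p = 0.000586), Dusp1 by 1.65, Nr4a1 by 1.65 and Ier2 by 1.40 (adjusted p = 0.00282). Dusp1 was also counted in the list for AU-rich mRNA. Their sum ranged from 442.0 to 1170.0 in skin cells and from 206.0 to 644.0 in wound cells. Their part in the chemokine differences was not tested.

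After each gene was centred within its array design, the 6 chemokines that rose correlated with each other at Pearson r of 0.96 to 0.999 over the 6 arrays. Ccl7 correlated with Ccl2 at 0.80. The arrays share the group difference, so such values mainly restate how regular each gene's difference was. The genes most like Cxcl1 were Slc11a1, a metal transporter of phagocytes (r 0.9999), Tsga8 (0.9999) and the ETS factor Elk3 (0.9998), and 538 of 15771 genes had r over 0.99. Slc11a1 rose by 3.20 (SE 0.15). Those most like Ccl2 were Gtf3c3 (0.9999), the mural marker Kcnj8 (0.9996) and Tmem19 (0.9996), and 199 genes had r over 0.99.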

How the data were processed

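Array hybridisation of RNA from 6 samples gave 1 scanner file a sample. The authors deposited linear spot intensities made with Feature Extraction 10.7.3.1, and build mm9 appears in the design name, per the file headers. The processed signal is background-subtracted and not scaled between arrays. The authors' deposited table holds log2 values per gene, normalised by the authors, as its differences show when set against the scanner values (slopes 1.0, 1.0 and 0.977 over 16522 genes), with the same direction. The sources do not state that scale. It was centred, and the sources do not state how it was centred or how probes were combined. Its differences matched those of the mean of all probes of a gene for replicates 1 and 2 (Pearson r 1.0 each). The match was less close for replicate 3 (r 0.976). Per the series' design text it was made with GeneSpring 14.5.

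Probes were named through the gene identifiers of the authors' table (9 of the 10 chemokines) and otherwise through RefSeq accessions (Ccl20), giving 30621 of 39429 probes a name on design 026655 and 30647 of 55680 on design 028005. Each chemokine has 1 probe. Control and outlier spots were left out, spots of a probe averaged, log2 signals centred on the 75th percentile of the array, and the brightest probe of a gene taken, the same on both designs for 97.0% of genes. Genes well above background on all 3 arrays of a group were tested with limma 3.58.1 (R 4.3.3), with the array design, which is also slide and scan, as a term, leaving 6.25 moderated degrees of freedom. The fit was tested on simulated data. Python 3.11.15, pandas 2.3.3 and matplotlib 3.10.9 prepared tables and figures. Precision is limited by 3 arrays a group.

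The text names the 10 chemokines, their receptors (of which 1 is not reported here), and in each other list the 4 genes past the threshold with the largest differences plus Il1r1, Tnfrsf1a, Nfkbia, Tnfaip3, Zfp36, Adam10, Adam17, Il6 and Cxcl12, with Acta2 and the 3 genes most like Cxcl1 and Ccl2. Genes named outside this rule were chosen after their values were seen. They are neighbours of the chemokine genes, sort markers, Tnf, Tlr2, Il17ra, Relb, Tnip1, Elane, Col1a1, Dcn, Csf3r, Itgam, Adgre1, Cd68, Krt5, Krt14, and genes that were dim. The chemokines and lists were chosen with earlier results of these data known. Alternatives covered the array design term, a replicate block, each design alone, scaling, background correction, probe choice, the filter, the authors' table and leaving out each array. Normexp used the median spot signal in place of the planned mean signal, which is not in the columns used here. Quantile normalisation within each array design followed it.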

Additional observations from a re-analysis of the deposited data

How the results depend on the processing

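The calls of the 9 tested chemokines held under all alternatives that gave a test, except that Cxcl3 was no longer tested when all 6 arrays had to be well above background, which left 5 of the chemokines called. Leaving out any array kept 6 called. The values on design 028005 alone, with no test, were 2.91 for Cxcl1, 4.14 for Cxcl2, 6.33 for Cxcl3 and 5.17 for Cxcl5. Genes called in all were 5676, and 1741 with no array design term. Leaving out an array gave 3743 (without skin replicate 1) to 5014 (without wound replicate 2). With the replicate block, in which the labels number only the pairs of design 026655, 5583 genes and 6 chemokines were called. Deviations of same-numbered arrays on that design correlated at 0.153 and those of crossed numbers at -0.153. With 2 arrays a group these are forced mirror values, which cannot decide on a pairing. Over all 6 arrays same-numbered arrays correlated at 0.336, 0.187 and 0.367, but these deviations also hold the array design. Replicate 3 is only a name, so the numbers were not taken as a pairing, and no result in the text pairs arrays by them. Under the replicate block Cxcr6 lost its call (adjusted p = 0.0669) and Ccr6 passed (adjusted p = 0.0488). Of 69 other named genes that were followed, 40 kept direction and call under all alternatives run. With no array design term 22 lost their call (adjusted p from 0.0623 to 0.981), and 15 of these did so under that alternative only: Birc3, Map3k8, Dusp1, Zfp36, Zfp36l2, Mapkapk2, Il1r1, Tek, Pdgfra, Fbln1, Nr4a1, Ier2, Tsga8, Elk3 and Tmem19. The other 7, Cxcr6, Vcam1, S100a8, Ly6g, Csf1r, Adam10 and Gtf3c3, lost it under further alternatives. Differences that changed sign, none of them past the threshold in the main analysis, were Ccr8 0.036, Cxcl12 0.38 and Ccl1 0.042 with the mean of all probes, Cxcl12 0.33 and Adam17 -0.036 in the authors' deposited table, Adam17 -0.057 with the percentile over detected probes and -0.027 on design 026655 alone, Tnfaip3 0.30 on design 028005 alone, and Ptprc 0.014 under normexp. Leaving out an array moved Tnfaip3 between -0.349 (without skin replicate 3) and 0.002 (without wound replicate 1), and Adam17 between -0.027 (without skin replicate 3) and 0.067 (without wound replicate 1). The cause of these changes was not tested. Raising dim signals to the lowest signal well above background was chosen after seeing the data. Signals near background limit the size of the difference of Cxcl3.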
